A study of Mus musculus with 70 samples.

Results

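Cholesterol in the brain is made in place, because lipoproteins of the blood do not pass the blood-brain barrier. The 33 genes described here cover its synthesis, the SREBP proteins that control it, its uptake and storage, and its export, out of 24346 genes listed for the dorsal hippocampus of mice. The members were chosen by name from the pathway, and interest in the pathway was selected on values of these data. Nsdhl, an enzyme of the late pathway, had the smallest p of all genes when 2 days of running (0-0-2) were set against sedentary. For that comparison the members' values are therefore given as a description, and no result is read from their p-values. A list of cholesterol synthesis genes had also been examined in every comparison with sedentary, so those comparisons are not independent of the choice.

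The mice were 12-week-old C57BL/6J males, housed singly, in 7 groups of 10 libraries. The group names give days of wheel running, then days of sedentary delay, then days of renewed running. Mice of 0-0-2 ran only in the final days, those of 14-0-0 had no delay, and those of 14-14-0 and 14-7-0 were tested after a delay with no renewed running, unlike those of 14-7-2. Sedentary mice (0-0-0) had no wheel running, and home cage mice (0-0-0) had neither running nor training. All but the home cage mice received 3 min of object location memory training (OLM), too brief to leave a lasting memory in mice that had not run, and tissue was taken 1 h later. Wheels were removed on the night before training. Tissue was collected on 2 days, harvest cohorts 1 and 2, with 5 libraries per group in each. The values are FPKM, read counts scaled for transcript length and for the size of the library, so levels can be set side by side between genes per length. Read depth was not used here, because the FPKM values carry no counts and no depth was matched to the libraries.

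The pathway runs in 2 stretches. The early steps turn acetyl-CoA through mevalonate into farnesyl diphosphate, and are covered by Acat2, Hmgcs1, Mvk, Pmvk, Mvd, Idi1 and Fdps, with Ggps1 on a side branch that serves protein prenylation. The late steps, from Fdft1 and Sqle to Dhcr7, close squalene into lanosterol and trim it to cholesterol. When membranes of the endoplasmic reticulum are poor in sterol, SCAP escorts SREBP2 (gene Srebf2) to the Golgi, where it is cut and freed to switch on the synthesis genes. INSIG proteins hold SCAP back when sterol is plentiful. Surplus cholesterol is sensed by LXR receptors such as the product of Nr1h2, which switch on the exporters Abca1 and Abcg1, and neurons convert it through Cyp46a1 into an oxysterol that leaves the brain. The early and late steps without Ggps1 are called the 18 synthesis genes below.

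Promoter windows from RefSeq (GRCm38.p6, 250 bases before to 50 after each gene's start) matched 27 of the 33 members by symbol. They are shown as background, because SREBP2 is known to bind a sterol regulatory element beside the factor NF-Y. Whether it did so in this tissue was not tested. The element's core TCACNCCAC was searched on both strands and was present in the window of 1 member, Hmgcs1, and of 1.44% of all 27025 genes with a window. The NF-Y box CCAAT was present on either strand for 14 of 15 matched synthesis genes (93.3%), for 8 of 12 other matched members (66.7%) and for 41.1% of all genes. The 2 motifs did not overlap in these windows, and a gene with several starts had several windows. A match is a description of letters and not a site shown to be bound. Hmgcs1 is printed because it holds the core, which begins 137 bases before the start (position -137, plus strand). Nsdhl, Idi1 and Sc5d are printed because, outside the comparison of 0-0-2 with sedentary, they had the smallest p of the synthesis genes. They were chosen after their values were seen. Capitals mark the core and each CCAAT or its reverse complement, of which Hmgcs1 has 4, Nsdhl 4, Idi1 2 and Sc5d 1.
Hmgcs1 promoter, chr13:119690101-119690400, plus strand: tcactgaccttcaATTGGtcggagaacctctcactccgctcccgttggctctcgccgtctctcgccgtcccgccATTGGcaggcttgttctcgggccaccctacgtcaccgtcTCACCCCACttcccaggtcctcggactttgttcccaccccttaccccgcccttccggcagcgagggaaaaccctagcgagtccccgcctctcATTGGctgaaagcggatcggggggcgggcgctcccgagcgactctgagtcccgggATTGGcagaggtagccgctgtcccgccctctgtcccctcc
Nsdhl promoter, chrX:72918271-72918570, plus strand: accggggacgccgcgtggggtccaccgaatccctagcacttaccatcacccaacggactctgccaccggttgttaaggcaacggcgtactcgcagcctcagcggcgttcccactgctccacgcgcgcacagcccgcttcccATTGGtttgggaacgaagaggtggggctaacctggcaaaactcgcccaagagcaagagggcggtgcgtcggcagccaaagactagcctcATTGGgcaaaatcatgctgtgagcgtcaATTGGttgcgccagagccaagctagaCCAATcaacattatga
Idi1 promoter, chr13:8885356-8885655, plus strand: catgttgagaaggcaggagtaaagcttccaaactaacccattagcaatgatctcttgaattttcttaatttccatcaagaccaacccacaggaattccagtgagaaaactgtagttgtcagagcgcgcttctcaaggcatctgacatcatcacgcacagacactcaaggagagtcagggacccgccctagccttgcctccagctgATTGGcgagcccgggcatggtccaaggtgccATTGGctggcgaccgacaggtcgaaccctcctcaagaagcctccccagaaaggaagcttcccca
Sc5d promoter, chr9:42264251-42264550, minus strand: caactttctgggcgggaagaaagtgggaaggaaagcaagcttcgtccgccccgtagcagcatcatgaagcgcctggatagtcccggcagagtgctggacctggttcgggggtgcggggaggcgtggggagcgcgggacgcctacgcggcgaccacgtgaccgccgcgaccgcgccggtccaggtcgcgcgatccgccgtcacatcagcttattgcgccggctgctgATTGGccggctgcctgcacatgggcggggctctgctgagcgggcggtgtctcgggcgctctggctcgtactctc

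All 33 members passed the filter of a mean of at least 1 FPKM over the 70 libraries, as did 12994 genes in all. A gene is called below at an unadjusted p under 0.05 in limma's moderated test, and the Benjamini-Hochberg adjusted p over the 12994 genes is given beside it. No member had an adjusted p under 0.05 in any of the 8 comparisons made. The library sums lay between 382574 and 469206 FPKM. Between 6243 and 7199 genes were at 0 in every library except 14-7-0 replicate 4, where 10279 were. Sedentary replicate 6 stood apart by its markers, given as the mean of centred log2 values: pyramidal neurons were at -3.36 against -0.54 to 0.44 in the other libraries, and oligodendrocytes at 1.20 against -1.02 to 0.81. Markers of hippocampal pyramidal neurons were present in 14-7-2 and 14-7-0, with group means from 12.9 to 1147 FPKM. In this bulk tissue, fewer cells of a type and less RNA per cell cannot be told apart.

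The comparison of 14-7-2 with 14-7-0 shares no library with the one that drew attention to the pathway, although its libraries also enter the comparisons of those groups with sedentary. It sets mice with 2 days of renewed running after a 7-day delay against mice without, all with 14 days of wheel access before. The paper cautions that the distance run in those 14 days varied between the groups. Distance was not used here. Synthesis genes were higher with renewed running: 13 of the 18 were called higher, none lower, and all 18 differences were positive, with a median of 0.25 on the log2 scale. Insig1, a target and brake of SREBP, and Stard4, a cytosolic sterol carrier, were also called higher, while the lysosomal exporter Npc1 and the cell-surface exporter Abca1 were called lower. The members called higher were thus 15 of 33, where 2.03% of all genes tested were called higher, and the 2 called lower stand beside 3.36% of all genes. The median difference of all genes tested was 0.00. The smallest adjusted p among the members was 0.487, so none of these calls held over all genes tested in this fit. The plot of member differences with their SE shows the early and late steps to the right of zero and 4 of the 5 efflux and turnover genes to its left.

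**Figure D1:**
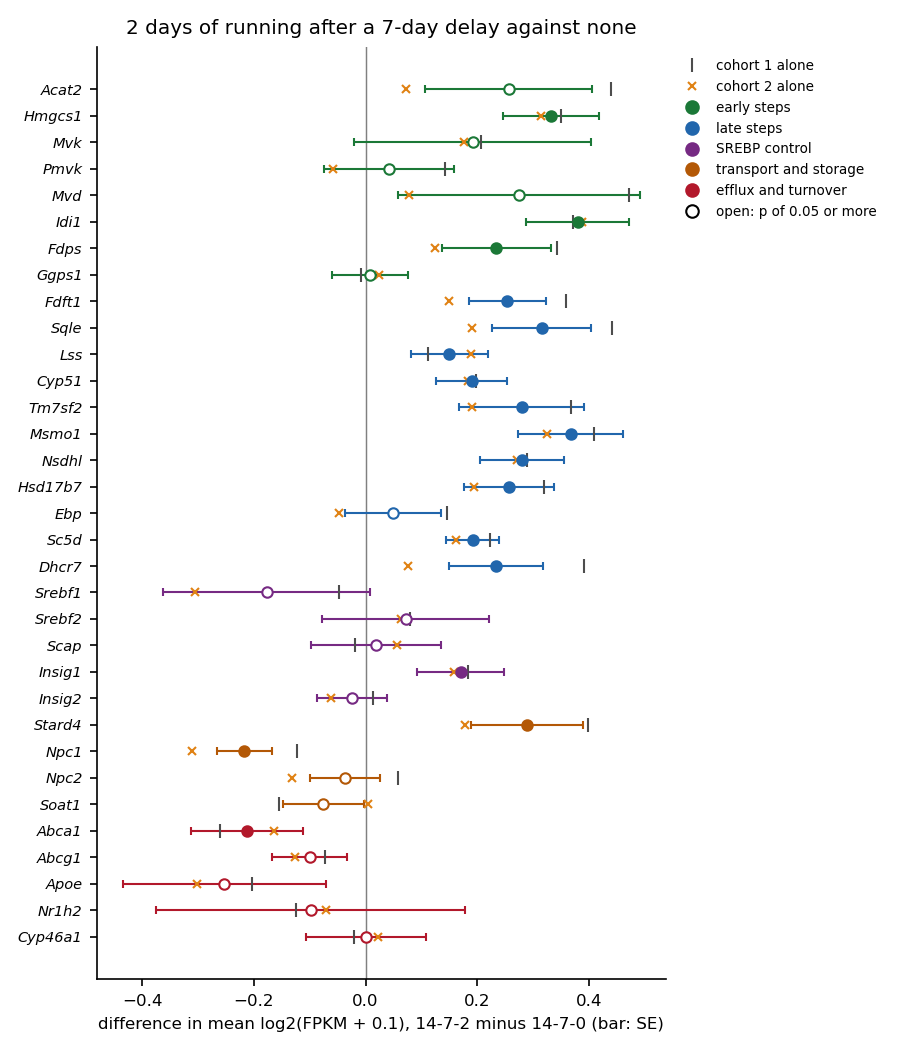
Difference of each member between 14-7-2 and 14-7-0 in mean log2(FPKM + 0.1), with the SE as a bar and the same difference within each harvest cohort as a tick or cross; filled points have an unadjusted p under 0.05. All 18 synthesis genes lie above 0, from 0.04 for Pmvk to 0.38 for Idi1, while Npc1 lies at -0.22 and Abca1 at -0.21.

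Hmgcs1, the cytosolic synthase that makes HMG-CoA, is among the earliest steps. Its lowest, median and highest FPKM were 69.4, 88.2 and 108.3 in 14-7-2, and 57.1, 69.6 and 95.8 in 14-7-0. The groups overlapped, with 9 of 10 libraries of 14-7-2 above the median of 14-7-0 and 3 above its highest library. The means were 89.4 ± 12.1 and 71.1 ± 10.4 (SD, n = 10 each), a log2 difference of 0.33 ± 0.09 (SE; p = 0.000931, adjusted p = 0.487). Across all groups 0-0-2 had the highest mean (96.1 ± 9.69), followed by 14-7-2 and 14-0-0 (88.9 ± 13.0), while home cage (77.9 ± 16.9), sedentary (77.8 ± 12.6) and 14-14-0 (77.7 ± 8.34) differed by less than their spread, and 14-7-0 had the lowest.

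Idi1, the isomerase that supplies the reactive isoprene unit, showed the largest log2 difference of the members in this comparison. The lowest, median and highest values were 22.5, 27.4 and 34.8 FPKM in 14-7-2, and 17.4, 21.0 and 31.7 FPKM in 14-7-0. Every library of 14-7-2 lay above the median of 14-7-0, and 14-7-0 replicate 1, the highest of its group, reached into the range of 14-7-2. The log2 difference was 0.38 ± 0.09 (SE; p = 0.000523, adjusted p = 0.487). In the remaining groups the means were 30.3 ± 4.63 FPKM in 0-0-2, 29.1 ± 5.10 in 14-0-0, 24.8 ± 3.12 in sedentary, 24.3 ± 2.78 in home cage and 23.8 ± 3.88 in 14-14-0 (SD).

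Fdps, which joins isoprene units into farnesyl diphosphate, was 49.4 ± 6.33 FPKM in 14-7-2 and 42.3 ± 8.25 in 14-7-0 (SD), a log2 difference of 0.23 ± 0.10 (SE; p = 0.0251, adjusted p = 0.816). The remaining early steps were not called. Acat2, which condenses acetyl-CoA and whose reads may be split with the near-identical Acat3, differed by 0.26 ± 0.15 on the log2 scale, and without 14-7-0 replicate 4 by 0.13 ± 0.09. The mevalonate kinase Mvk differed by 0.19 ± 0.21, the decarboxylase Mvd by 0.27 ± 0.22 and Pmvk by 0.04 ± 0.12. For Mvk and Pmvk the SE was larger than the difference. Ggps1, on the side branch, differed by 0.01 ± 0.07.

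Fdft1, squalene synthase, commits farnesyl diphosphate to sterols. Its lowest, median and highest FPKM were 22.0, 25.8 and 27.9 in 14-7-2 and 16.7, 21.1 and 27.4 in 14-7-0, so that every library of 14-7-2 exceeded the median of 14-7-0. The log2 difference was 0.25 ± 0.07 (SE; p = 0.00132, adjusted p = 0.487). Sqle, squalene epoxidase, ran from 21.5 through 24.98 to 35.7 FPKM in 14-7-2 and from 15.9 through 21.0 to 25.3 FPKM in 14-7-0, with 5 libraries of 14-7-2 above the highest of 14-7-0. Its log2 difference was 0.32 ± 0.09 (SE; p = 0.00187, adjusted p = 0.487). Among the other groups, Fdft1 means were 26.6 FPKM in 0-0-2, 25.03 in 14-0-0, 24.0 in both sedentary and home cage and 23.8 in 14-14-0, with SDs from 2.04 to 2.90. Sqle means were 27.7 FPKM in 0-0-2, 25.1 in 14-0-0, 24.5 in 14-14-0, 24.2 in sedentary and 23.2 in home cage, with SDs from 2.53 to 4.45.

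Lss, which folds the epoxide into lanosterol, had a lowest, median and highest value of 5.21, 6.02 and 7.31 FPKM in 14-7-2 and 4.76, 5.398 and 6.46 FPKM in 14-7-0. The log2 difference was 0.15 ± 0.07 (SE; p = 0.0408). Cyp51, the lanosterol demethylase, ran from 16.0 through 17.4 to 20.2 FPKM in 14-7-2 and from 13.1 through 15.3 to 17.8 FPKM in 14-7-0, and differed by 0.19 ± 0.06 on the log2 scale (p = 0.00727). For Cyp51, 5 libraries of 14-7-2 cleared the range of 14-7-0 and the others lay within it. Tm7sf2, a sterol reductase that acts after Cyp51, ran from 5.0 through 8.73 to 11.7 FPKM in 14-7-2 and from 5.83 through 6.94 to 8.79 FPKM in 14-7-0, with a log2 difference of 0.28 ± 0.11 (p = 0.0207). Its lowest library in 14-7-2, replicate 9, lay below every library of 14-7-0. The group means of Lss were 6.48 FPKM in 0-0-2, 5.98 in 14-0-0, 5.61 in 14-14-0, 5.60 in sedentary and 5.48 in home cage, those of Cyp51 20.03, 19.0, 15.8, 16.9 and 16.0 FPKM in the same order, and those of Tm7sf2 9.66, 8.26, 7.29, 7.57 and 7.75 FPKM.

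Msmo1 and Nsdhl act in turn to strip methyl groups from the sterol nucleus. Msmo1 ran from 50.9 through 56.6 to 73.8 FPKM in 14-7-2 and from 38.6 through 45.8 to 63.1 FPKM in 14-7-0. Every library of 14-7-2 lay above the median of 14-7-0, and the log2 difference was 0.37 ± 0.09 (SE; p = 0.000807, adjusted p = 0.487). Nsdhl ran from 10.6 through 12.5 to 15.4 FPKM in 14-7-2 and from 8.32 through 9.82 to 13.4 FPKM in 14-7-0, a log2 difference of 0.28 ± 0.07 (SE; p = 0.00126, adjusted p = 0.487). In both groups the highest Nsdhl value was that of replicate 9. Nsdhl means in the other groups were 13.3 ± 1.44 FPKM in 0-0-2, 13.0 ± 1.25 in 14-0-0, 11.5 ± 1.54 in 14-14-0, 10.998 ± 1.72 in home cage and 10.5 ± 1.18 in sedentary (SD). Msmo1 means were 66.1 ± 8.37 FPKM in 0-0-2, 60.9 ± 8.497 in 14-0-0, 53.1 ± 8.79 in 14-14-0, 52.5 ± 6.44 in home cage and 52.2 ± 7.53 in sedentary (SD).

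Sc5d, the desaturase near the end of the pathway, had the most libraries of 14-7-2 above the highest of 14-7-0 of any member, 6 of 10. Its lowest, median and highest FPKM were 27.6, 30.4 and 34.3 in 14-7-2, and 24.6, 26.2 and 30.1 in 14-7-0. Every library of 14-7-2 was above the median of 14-7-0 and every library of 14-7-0 below the median of 14-7-2, although the ranges overlapped. The log2 difference was 0.19 ± 0.05 (SE; p = 0.000596, adjusted p = 0.487). The final reductase Dhcr7 was 16.1 ± 2.06 FPKM in 14-7-2 and 13.7 ± 2.00 in 14-7-0 (p = 0.0115), and Hsd17b7, which works with Nsdhl, was 7.73 ± 0.862 and 6.48 ± 0.932 FPKM (p = 0.00445). The isomerase Ebp was the late step that was not called, at 9.51 ± 0.540 and 9.30 ± 1.49 FPKM, and without 14-7-0 replicate 4, its lowest library at 5.83 FPKM, the log2 difference was -0.02 ± 0.05.

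**Figure D2:**
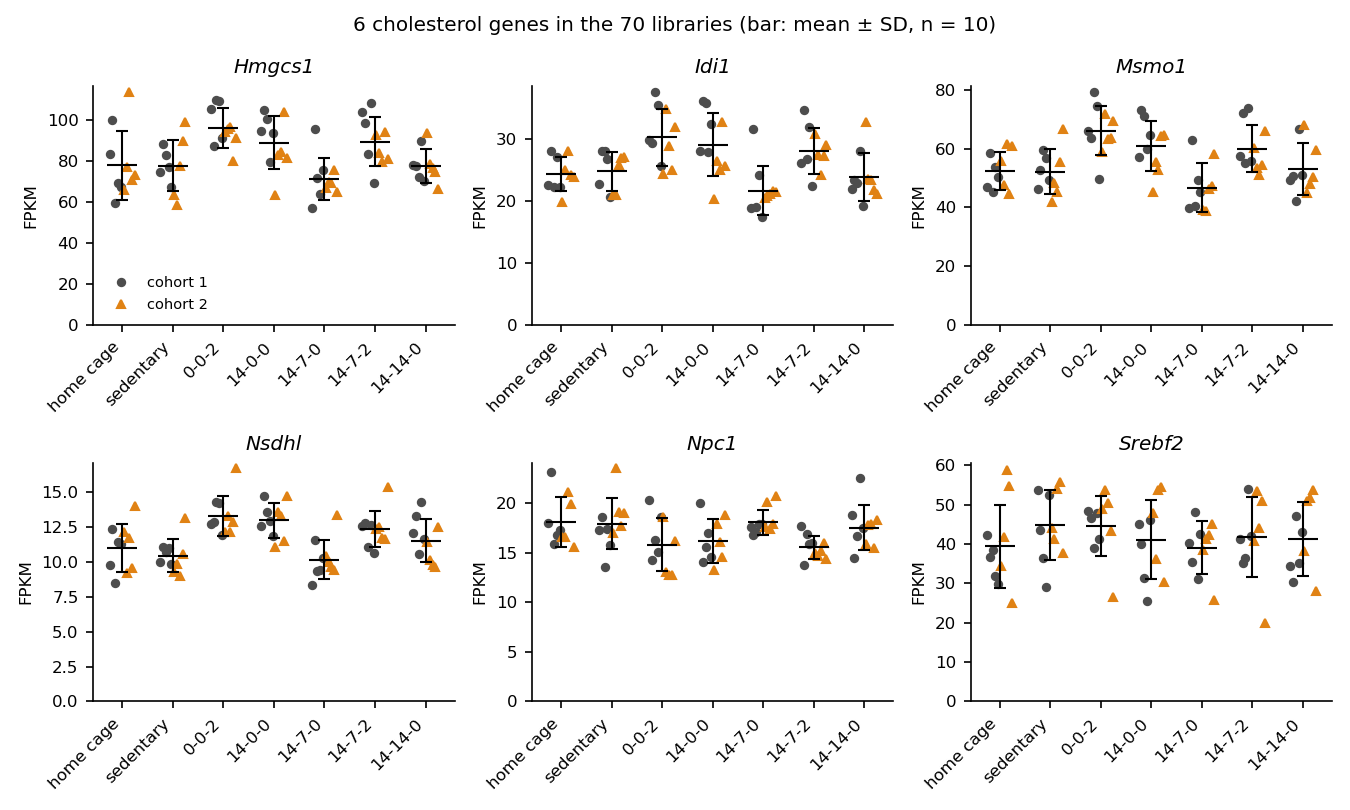
FPKM of 6 members in each of the 70 libraries, by group, with circles for harvest cohort 1, triangles for cohort 2 and the mean ± SD of 10 libraries as a bar. Hmgcs1, Idi1, Msmo1 and Nsdhl have higher means in 0-0-2, 14-0-0 and 14-7-2 than in 14-7-0, Npc1 has its lowest means in 14-7-2 and 0-0-2, and Srebf2 means lie between 39.1 and 44.8 FPKM.

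The genes of SREBP control did not follow the enzymes as a group. Insig1 was 27.7 ± 2.78 FPKM in 14-7-2 and 24.8 ± 3.62 in 14-7-0 (SD), a log2 difference of 0.17 ± 0.08 (SE; p = 0.0400, adjusted p = 0.915). This call was lost under median ratio scaling, by the study's own test (Cyber-T) and in each harvest cohort alone. It was also lost with the choroid plexus marker level as a covariate. Srebf2, which encodes SREBP2, ran from 19.8 through 41.7 to 54.0 FPKM in 14-7-2 and from 25.8 through 40.9 to 48.1 FPKM in 14-7-0. These ranges lie almost wholly over each other, and the log2 difference was 0.07 ± 0.15 (p = 0.637). Srebf1, which favours fatty acid genes, differed by -0.18 ± 0.19, Scap by 0.02 ± 0.12 and Insig2 by -0.02 ± 0.06. Srebf2, Srebf1, Scap and Insig2 were called in none of the 8 comparisons, and their transcript levels do not report cleavage of the protein.

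Among transport and storage genes, Stard4 was 4.85 ± 0.754 FPKM in 14-7-2 and 3.96 ± 0.681 in 14-7-0 (p = 0.00912, adjusted p = 0.660). Npc1, which moves cholesterol out of lysosomes, had the smallest p of the members. It ran from 13.8 through 15.5 to 17.7 FPKM in 14-7-2 and from 16.8 through 17.7 to 20.7 FPKM in 14-7-0. Only 1 library of 14-7-2 was above the median of 14-7-0, and all 10 of 14-7-0 were above the median of 14-7-2. The log2 difference was -0.22 ± 0.05 (SE; p = 0.000262, adjusted p = 0.487). Its lysosomal partner Npc2 differed by -0.04 ± 0.06 and Soat1, which esterifies cholesterol for storage, by -0.08 ± 0.07.

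Of the efflux and turnover genes, Abca1 ran from 4.33 through 5.12 to 6.55 FPKM in 14-7-2 and from 4.34 through 6.30 to 7.12 FPKM in 14-7-0. The log2 difference was -0.21 ± 0.10 (SE; p = 0.0462, adjusted p = 0.926), and the call was lost with harvest cohort as a covariate. Abcg1 differed by -0.10 ± 0.07, and Apoe, the lipoprotein that carries cholesterol between glia and neurons, by -0.25 ± 0.18. Apoe, by FPKM the most abundant member, ran from 303.4 through 738.7 to 1225 FPKM in 14-7-2 and from 632.4 through 862.8 to 1316 FPKM in 14-7-0. Nr1h2 differed by -0.10 ± 0.28 and Cyp46a1 by 0.00 ± 0.11. The Cyp46a1 ranges, 37.1 to 76.9 FPKM in 14-7-2 and 43.8 to 67.4 FPKM in 14-7-0, covered each other.

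Within harvest cohort 1 alone (5 libraries against 5), all 18 synthesis differences were positive with a median of 0.35 on the log2 scale. Within cohort 2 alone, 16 of 18 were positive with a median of 0.18. Hmgcs1, Msmo1, Nsdhl and Sc5d were called in each cohort on its own by limma. Nsdhl differed by 0.29 and 0.27 on the log2 scale in cohorts 1 and 2, and Idi1 by 0.37 and 0.39. Dhcr7, by contrast, differed by 0.39 in cohort 1 and 0.08 in cohort 2, and Npc1 by -0.12 and -0.31. The test of the difference between cohorts gave no member a p under 0.05 (smallest p = 0.0539, for Dhcr7, adjusted p = 0.963). Without 14-7-0 replicate 4 the same 17 members were called.

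Cell type markers moved in this comparison as well. Of 12 oligodendrocyte markers, 7 were called lower in 14-7-2 and all 12 differences were negative, with a median of -0.32 on the log2 scale. The oligodendrocyte level per library, the mean of the 12 centred log2 values, ran from -0.55 to 0.25 in 14-7-2 and from -0.20 to 0.71 in 14-7-0, and the group means of these markers lay between 15.6 and 1843 FPKM. The synthesis genes differed in the opposite direction to these markers. With the oligodendrocyte level as a covariate, the same synthesis genes except Lss were called higher and none lower. The median log2 difference of all synthesis genes was then 0.30. Npc1 moved with the oligodendrocyte markers, with r = 0.82 over the 70 libraries after group and cohort means were removed (given as a description), and was still called lower with that covariate. All 10 choroid plexus markers were at positive differences, with a median of 0.63 and none called. With their level as a covariate Insig1 was no longer called and Mvd was called higher. All 5 thalamus markers were at positive differences too, with a median of 0.20 and none called. Of 6 inhibitory neuron markers 3 were called lower, and of 6 microglial markers 2. The part of the thalamus, inhibitory neuron and microglial markers in the result was not tested.

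**Figure D3:**
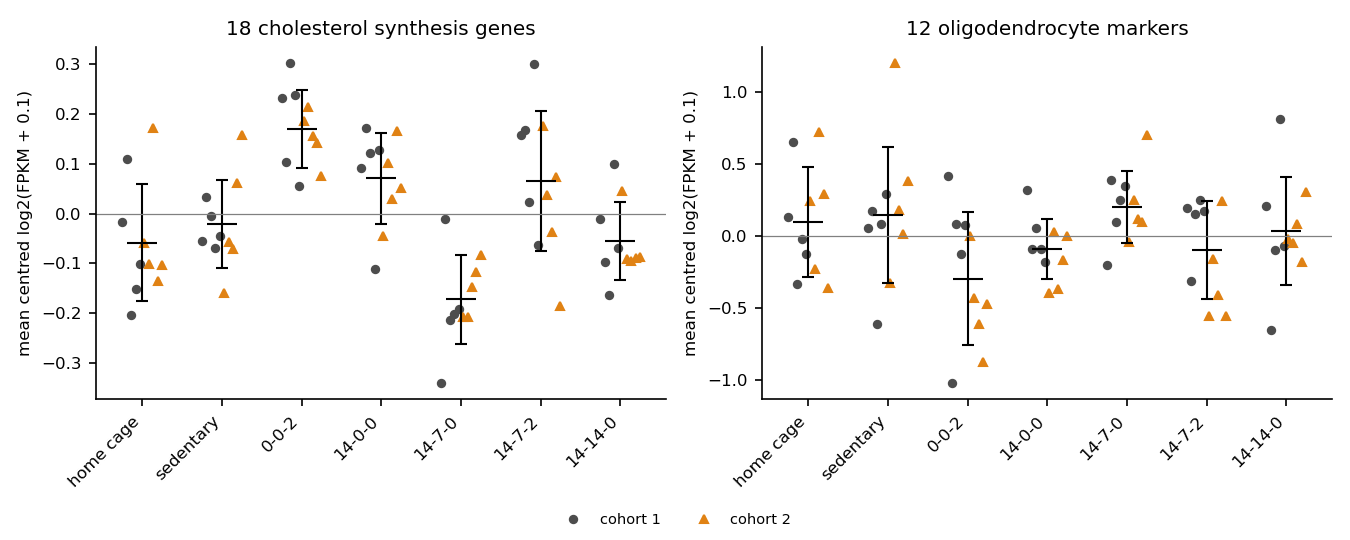
Mean of centred log2(FPKM + 0.1) per library over the 18 synthesis genes (left) and the 12 oligodendrocyte markers (right), each gene centred on its mean over 70 libraries, by group and harvest cohort, with the mean ± SD of 10 libraries. The synthesis level is at or below -0.01 in all libraries of 14-7-0 and at or above 0.0559 in all libraries of 0-0-2, while the oligodendrocyte level of sedentary replicate 6 reaches 1.20.

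Other genes of lipid metabolism were also called between 14-7-2 and 14-7-0, where 2.03% of all genes tested were called higher and 3.36% lower. Of 12 fatty acid synthesis genes, Acss2 was called higher and Thrsp lower. Acss2, which makes acetyl-CoA from acetate, was 24.5 FPKM in 14-7-2 and 19.3 FPKM in 14-7-0, a log2 difference of 0.34 ± 0.07 (SE; p = 0.000142, adjusted p = 0.487). Thrsp differed by -0.19 ± 0.08. Of 26 other sterol handling genes tested, the lipoprotein receptor Lrp8 was called higher (0.15 ± 0.05) and the apolipoproteins Apod (-0.34 ± 0.13) and Clu (-0.25 ± 0.08) lower on the log2 scale. The median difference was 0.05 for the fatty acid list and -0.02 for the other sterol list, against 0.25 for the synthesis genes.

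The 6 comparisons with sedentary all use the same 10 sedentary libraries, so their values are set side by side and not counted as separate support. In 14-7-0, after the 7-day delay, the synthesis genes were at or below sedentary: all 18 differences were negative, with a median of -0.16 on the log2 scale, and 6 members were called lower and none higher (all genes: 1.66% lower and 1.6% higher). The members were Mvd, Idi1, Fdft1, Sqle, Ebp and Dhcr7, and the smallest adjusted p was 0.968. Sqle was 20.7 ± 2.88 FPKM against 24.2 ± 2.82 in sedentary, a log2 difference of -0.23 ± 0.08 (SE; p = 0.00997), and 8 of the 10 libraries of 14-7-0 lay at or below the sedentary median. Mvd was 7.73 ± 1.24 against 9.40 ± 1.67 FPKM (p = 0.0133). Without sedentary replicate 6, Ebp (p = 0.0588) and Dhcr7 (p = 0.0752) were no longer called and Stard4 was, 5 members in all. Without 14-7-0 replicate 4, Mvk, Pmvk, Mvd and Sqle were the 4 called lower. Fdft1 and Sqle were called lower in cohort 1 alone and Mvd in cohort 2 alone, where 17 and 15 of the 18 differences were negative. The lipid transporter Abca7 was the other sterol handling gene called (-0.38 ± 0.13 on the log2 scale), and no fatty acid gene was.

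In 14-7-2, with renewed running, Hmgcs1, Idi1, Msmo1 and Nsdhl were called higher than sedentary and Ebp and Npc1 lower (all genes: 2.07% higher and 2.32% lower; smallest adjusted p of a member 0.847). Nsdhl was 12.3 ± 1.30 FPKM against 10.5 ± 1.18, a log2 difference of 0.24 ± 0.07 (SE; p = 0.00231), and all 10 libraries of 14-7-2 exceeded the sedentary median. Because Nsdhl had drawn attention against the same sedentary libraries, this is no separate support. Without sedentary replicate 6, the calls of Hmgcs1 (p = 0.0835) and Idi1 (p = 0.0782) were lost and those of Msmo1 and Nsdhl were not. All 12 oligodendrocyte markers were at negative differences here, with a median of -0.24 on the log2 scale and none called, and with their level as a covariate the calls of Hmgcs1 and Idi1 were lost. All 10 choroid plexus markers were at positive differences, with a median of 0.70 and none called, and with their level as a covariate the calls of Idi1 and Msmo1 were lost and Tm7sf2 and Hsd17b7 were called higher. Ebp was 9.51 ± 0.540 FPKM against 10.6 ± 1.07, with every library of 14-7-2 below the sedentary median (p = 0.0166). Npc1 was 15.5 ± 1.18 against 17.9 ± 2.58 FPKM (p = 0.0158). Its difference was -0.04 in cohort 1 and -0.35 in cohort 2 on the log2 scale, and the difference between cohorts had p = 0.0343 (adjusted p = 0.953). Acss2 was the fatty acid gene called, at 0.26 ± 0.08.

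In 14-0-0, measured without a delay, Idi1, Cyp51, Msmo1 and Nsdhl were called higher and no member lower. A share of 6.11% of all genes was called higher here and 3.04% lower, more in each direction than in any other comparison with sedentary, and the 4 of 33 members are to be read against that background. Nsdhl was 13.0 ± 1.25 FPKM against 10.5 ± 1.18, with all 10 libraries above the sedentary median and a log2 difference of 0.31 ± 0.07 (SE; p = 0.000166, adjusted p = 0.279). The difference was 0.31 in each cohort. Nsdhl had drawn attention against these same sedentary libraries, so its p here is no separate support. Msmo1 differed by 0.22 ± 0.09 and Cyp51 by 0.17 ± 0.08. Cyp51 differed by 0.32 in cohort 1 and 0.02 in cohort 2 (p of the difference between cohorts = 0.0485, adjusted p = 0.956). Without sedentary replicate 6 the call of Idi1 was lost (p = 0.0674), as it was with the oligodendrocyte level as a covariate. The 12 oligodendrocyte markers were all at negative differences in 14-0-0, with a median of -0.24 on the log2 scale and none called. All 10 choroid plexus markers were called higher in 14-0-0, with a median of 2.54 on the log2 scale, and over the libraries Npc2 and Abca1 moved with their level (r = 0.65 and 0.54, as a description). With that level as a covariate, Hmgcs1 and Insig1 were called higher too, 6 members in all. Acss2, Fads1, Erlin2 and Nceh1 were called higher in the other lists.

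In 14-14-0, after the 14-day delay, 1 member was called higher and 1 lower (all genes: 3.19% higher and 1.75% lower). Abca1 ran from 5.05 through 6.11 to 8.46 FPKM against 4.21 through 5.50 to 5.78 FPKM in sedentary (p = 0.0347, adjusted p = 0.974), and the call was lost with the choroid plexus level as a covariate. Those 10 markers were all called higher in this comparison too, with a median of 2.51 on the log2 scale. Pmvk was 22.8 ± 2.51 FPKM against 25.2 ± 2.49 (p = 0.0384), and without sedentary replicate 6 its p was 0.0745, while Npc2 was then called higher. Neither Abca1 nor Pmvk was called by Cyber-T, in a joint fit of all groups or in either cohort alone. The synthesis genes had a median of -0.05. Between home cage mice, which had no training, and sedentary mice, no member was called in either direction at an unadjusted p under 0.05. This held by limma (all genes: 1.22% higher and 1.08% lower) and by Cyber-T. The median difference of the synthesis genes there was -0.03 on the log2 scale. Cyp46a1 differed by -0.19 ± 0.12 (SE), with 51.1 ± 8.21 FPKM in home cage and 58.9 ± 12.7 in sedentary.

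In 0-0-2, the comparison that drew attention to the pathway, 11 members had an unadjusted p under 0.05 on the higher side and none on the lower, where 1.14% of all genes did so higher and 1.23% lower. These values are a description: Nsdhl led to the choice of the pathway, so nothing is read from the count. Nsdhl ran from 11.9 through 12.9 to 16.7 FPKM against 8.98 through 10.3 to 13.2 FPKM in sedentary, a log2 difference of 0.35 ± 0.07 (SE). Msmo1 differed by 0.34 ± 0.09, Tm7sf2 by 0.33 ± 0.12, Hmgcs1 by 0.31 ± 0.09 and Idi1 by 0.28 ± 0.09. Insig1 differed by 0.17 ± 0.08 and Fdps by 0.16 ± 0.08. All libraries of 0-0-2 had a synthesis level of 0.0559 or more, the means of 15 of the 18 synthesis genes were highest in this group, and 15 of the 18 were lowest in 14-7-0. Without sedentary replicate 6 the median synthesis difference was 0.19, against 0.20 with it. Of the 12 oligodendrocyte markers 6 were called lower, with a median of -0.43 on the log2 scale. Repeat fits of this comparison use the values that chose the pathway, so they add no support. The heat map of member differences places 0-0-2 beside the other comparisons.

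**Figure D4:**
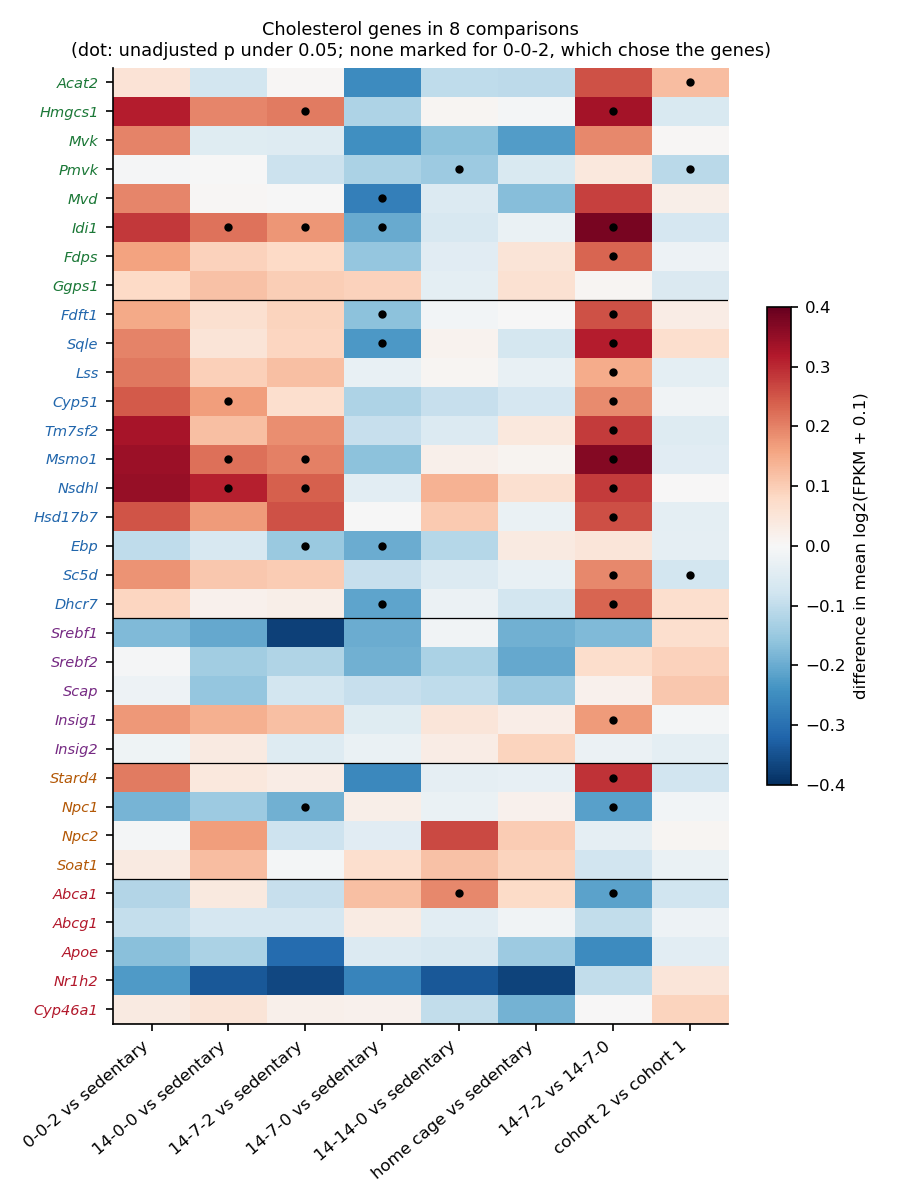
Difference in mean log2(FPKM + 0.1) of the 33 members (rows, by role, coloured by list) in the 8 comparisons (columns), from blue (lower in the first group) to red (higher); dots mark an unadjusted p under 0.05 and are not drawn for 0-0-2 against sedentary. The late steps from Fdft1 to Nsdhl form a red band in 0-0-2 and in 14-7-2 against 14-7-0, and no cell of the home cage column is marked.

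Between harvest days 1 member was called higher and 2 lower of the 33, to be read against the shares of all genes given below. Acat2 was called higher in cohort 2 (11.7 ± 1.62 against 10.8 ± 1.70 FPKM, SD, n = 35 each), and Pmvk (23.4 ± 3.40 against 25.1 ± 2.51 FPKM) and Sc5d (28.2 ± 2.53 against 29.8 ± 3.39 FPKM) lower, with group as a covariate. Over all genes 3.58% were called higher and 8.29% lower, and the smallest adjusted p of a member was 0.258, for Sc5d. Without the 7 libraries with replicate number 9, all of cohort 2, other members were called, and only Sc5d was shared. The shares of all genes above do not apply to this fit. Mvk, Mvd, Srebf1, Srebf2, Scap, Nr1h2 and Cyp46a1 were then called higher in cohort 2, and Fdps, Ggps1, Msmo1, Nsdhl, Sc5d and Insig2 lower. This set of libraries was left out after its values had been seen.

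The replicate 9 libraries stood apart for several members in each group. Nr1h2, the LXR receptor gene, was lowest in replicate 9 in 7 of 7 groups, at 0.23 to 0.56 times the mean of the other 9 libraries, and so was Apoe, at 0.37 to 0.80 times. Srebf1 and Tm7sf2 were lowest there in 6 of 7 groups, Srebf2, Mvk and Abcg1 in 5. Nsdhl and Fdps were highest there in 5 of 7 groups, Nsdhl at 1.09 to 1.36 times the mean of the others. Without these libraries the members called between 14-7-2 and 14-7-0 were called again, except Lss. Acat2, Mvk and Mvd were then called higher too, and Soat1 and Abcg1 lower. The labels give no batch that the number could stand for.

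**Figure D5:**
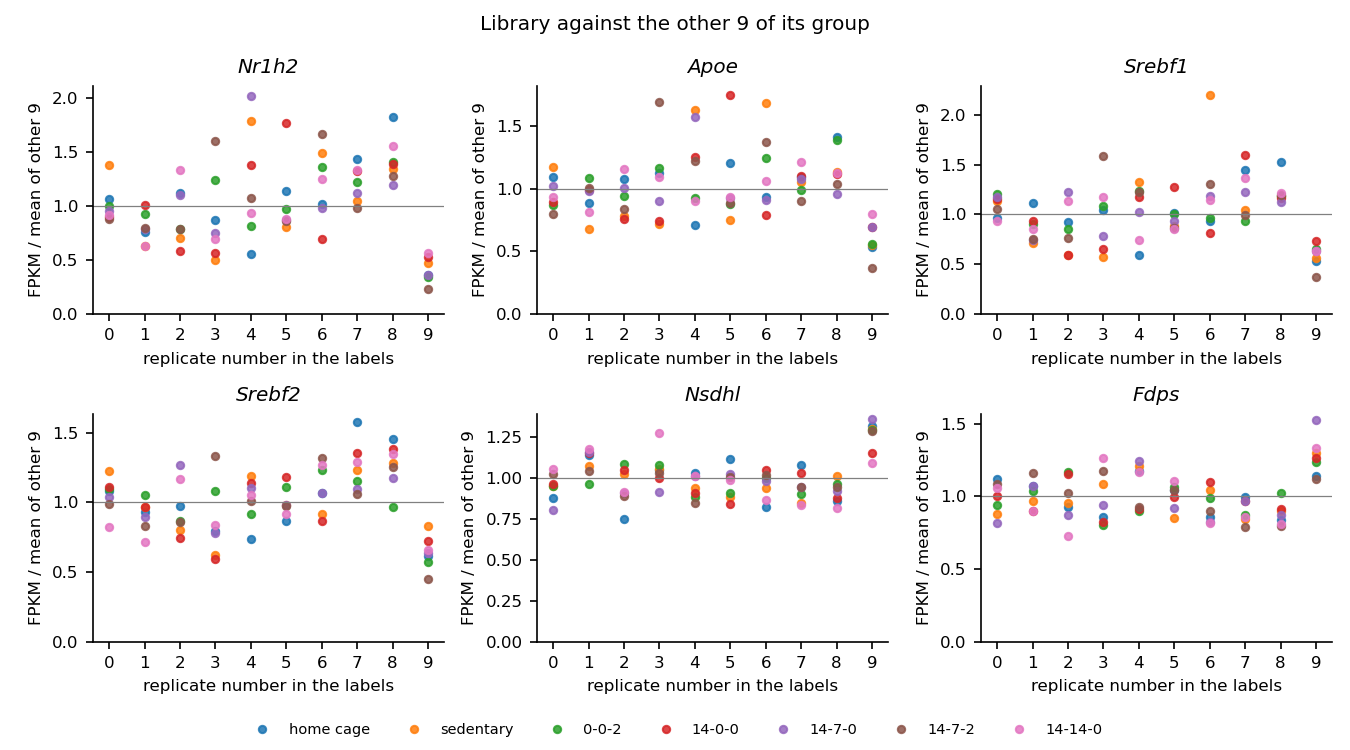
FPKM of 6 members in each library divided by the mean of the other 9 libraries of its group, against the replicate number in the labels, with 1 point per group. In the replicate 9 column Nr1h2 lies between 0.23 and 0.56 and Apoe between 0.37 and 0.80 in all 7 groups, whereas Nsdhl lies between 1.09 and 1.36.

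The members also varied together within groups. After group and cohort means were removed, the median Pearson r over the 153 pairs of synthesis genes was 0.18 across the 70 libraries, against -0.0047 over all gene pairs tested, with single pairs from -0.59 to 0.83. For the late steps it was 0.25 and for the 8 early-step genes, Ggps1 included, 0.06. These libraries share their tissue and normalization, so the values are descriptions. The genes with the highest median r with the synthesis genes were Insig1 (0.49), Msmo1 (0.45), Sqle and Hmgcs1 (0.41 each) and Stard4 (0.39). Cyp46a1 had a median r of -0.29, Scap of -0.20, Apoe of -0.18 and Srebf2 of -0.08. Mvk, whose product acts in the same early stretch as that of Hmgcs1, had a median r of -0.09 and an r of 0.81 with the microglial marker level, as had Srebf2 (0.81), Nr1h2 (0.81), Cyp46a1 (0.76) and Apoe (0.75). These genes moved with other marker levels as well, Cyp46a1 and Apoe with inhibitory neurons (0.74 and 0.73) and Srebf2 and Mvk with astrocytes (0.74 and 0.62). The microglial level of replicate 9 was the lowest of its group in 6 of 7 groups, at -0.54 in 14-7-2 and -0.53 in 0-0-2. Nsdhl moved against that level (r = -0.65). Without sedentary replicate 6 and 14-7-0 replicate 4 the median over the synthesis pairs was 0.19.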

How the data were processed

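RNA of the dorsal hippocampus was measured in 70 libraries (poly(A) TruSeq, single reads, a kit that does not mark strand). The authors aligned reads with ELAND v2e and Bowtie, kept unique alignments with at most 2 mismatches and made the deposited FPKM values with the Tuxedo programs. The submitters' processing notes name mm10, Bowtie and Cuffnorm, with no versions. Uniquely mapped reads leave genes with near copies, such as Acat2, uncertain.

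Values were transformed as log2(FPKM + 0.1), which understates fold changes of low genes. Genes averaging 1 FPKM or more were kept. Groups were compared pairwise in limma 3.58.1 under R 4.3.3 (moderated test, trended prior, two-sided) on the 20 libraries concerned without covariates, and cohorts on all 70 libraries with group as a covariate. The study's own test was Cyber-T, run here as an alternative, and its unadjusted threshold was kept. Benjamini-Hochberg adjustment covered the 12994 genes tested. Differences in the text are first group minus second. Libraries are taken as separate mice. If some were not, p-values measure the technical spread too. The script was tested on simulated data. The members and gene lists were chosen with earlier results of these data known. All members are named, those called in 2 or more comparisons together with Srebf2, Apoe and Cyp46a1 are described further, and other pathway genes are named where called, apart from a result that is not reported here. Replicate numbers were not used as pairs, because the labels do not pair the libraries. Same-numbered libraries correlated above 0.1 in 2 to 7 of 10 pairs per comparison, and what they share was not tested. Alternatives covered the pseudocount, filter, scaling, fit, cohort, marker covariates, Cyber-T and left-out libraries. Plots were made in Python 3.11.15 (matplotlib 3.10.9).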

Additional observations from a re-analysis of the deposited data

Results flagged for a closer look

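In each group of 10 libraries, the gap between the highest or lowest library and its neighbour was compared with the range of the group (Dixon's 95% limit). Of 231 groups of member values, 28 passed it, where 1 in 20, or 11.55, would by chance. Each value below is followed by the mean of the other 9 libraries.

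The replicate 9 libraries of 0-0-2 and 14-7-2 held 5 of these values each. In 0-0-2 replicate 9, Mvk was 4.60 FPKM (others 10.5), Pmvk 18.01 (26.0), Mvd 6.66 (11.2), Nsdhl 16.7 (13.0) and Npc2 28.3 (17.2). In 14-7-2 replicate 9, Mvk was 2.79 FPKM (9.13), Pmvk 12.3 (25.5), Mvd 2.48 (10.8), Nsdhl 15.4 (12.01) and Abcg1 10.9 (16.2). Nsdhl was 13.2 FPKM in sedentary replicate 9 (10.2), and 14-7-0 replicate 9 had Dhcr7 at 18.2 FPKM (13.2) and Abcg1 at 14.0 FPKM (17.0).

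In 14-7-0 replicate 1, Hmgcs1 was 95.8 FPKM (68.4), Idi1 31.7 (20.6) and Ggps1 22.7 (16.4). In 14-7-0 replicate 4, the library with the most genes at 0, Mvk was 12.8 FPKM (6.72), Mvd 10.7 (7.39) and Apoe 1316 (837.3). Sqle was highest by this measure in 14-7-2 replicate 3 at 35.7 FPKM (24.7), in 14-14-0 replicate 3 at 33.2 FPKM (23.5) and in home cage replicate 7 at 33.8 FPKM (22.1). In the same order, dentate granule cell markers were at -0.62, -1.28 and -1.26 and thalamus markers at 1.80, 1.08 and 0.26. The part of these markers was not tested. Hsd17b7 was 9.72 FPKM in 14-7-2 replicate 3 (7.51) and Sc5d 31.7 FPKM in 14-14-0 replicate 3 (26.7). Srebf1 was 23.1 FPKM in sedentary replicate 6 (10.5), the library low in pyramidal neuron markers. Npc2 was 34.3 FPKM in home cage replicate 3 (18.4), Soat1 3.69 FPKM in 14-0-0 replicate 5 (6.10) and Abca1 4.21 FPKM in sedentary replicate 4 (5.54).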

How the results depend on the processing

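No member that was called in a comparison changed direction there under the alternatives followed gene by gene, which for left-out libraries were sedentary replicate 6, 14-7-0 replicate 4 and the replicate 9 libraries. A pseudocount of 1, a minimum mean of 5 FPKM and no filter left each count of called members within 1.5 times its value. The other counts follow as members called, and the causes of their shifts were not tested. The share of all genes called in each setting is not given here. Those of 0-0-2 are counts past the threshold in the comparison that chose the pathway, given as a description.

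At an unadjusted p under 0.01, the counts were 1 in 14-0-0 (from 4), 1 in 14-7-0 (from 6), 1 in 14-7-2 (from 6), 0 in 14-14-0 (from 2) and 7 in 0-0-2 (from 11) against sedentary, 11 in 14-7-2 against 14-7-0 (from 17) and 0 between cohorts (from 3). Within cohort 1 alone, with fewer libraries, they were 2 in 14-7-0, 2 in 14-7-2 and 10 in 14-7-2 against 14-7-0. Within cohort 2 alone they were 1 in 14-0-0, 1 in 14-7-0, 2 in 14-7-2, 1 in 14-14-0, 4 in 0-0-2 and 8 in 14-7-2 against 14-7-0. Cyber-T gave 2 in 14-7-0, 2 in 14-7-2 and 1 in 14-14-0. Quantile normalization gave 2 in 14-7-0 and 1 in 14-14-0, and for 14-14-0 median ratio scaling, a joint fit of all groups and the choroid plexus covariate gave 1 each. In 14-14-0 the member called by Cyber-T and by the joint fit was Npc2, and in cohort 2 alone it was Ebp. Neither was called in the main fit. Leaving out the replicate 9 libraries, chosen after seeing the data, gave 13 between cohorts.

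Among single libraries, only the 10 sedentary ones and 14-7-0 replicate 4 were left out in turn. This gave 2 to 6 in 14-0-0 (2 without sedentary replicate 0, 4 or 5), 2 to 8 in 14-7-0 (2 without sedentary replicate 1 or 9, 3 without 8), 3 to 8 in 14-7-2 (3 without sedentary replicate 0 or 5), 1 to 3 in 14-14-0 (1 without sedentary replicate 0, 1, 4 or 7), 9 to 14 in 0-0-2, 0 to 1 in home cage (1 without sedentary replicate 9) and 3 to 4 between cohorts. In 14-7-2 against 14-7-0, where only 14-7-0 replicate 4 was left out, the count was 17.

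The labels do not pair the libraries by replicate number. Same-numbered libraries correlated above 0.1 in 2 to 7 of 10 pairs, with median r from -0.0057 to 0.158 by comparison. Nr1h2 was lowest in replicate 9 in 7 of 7 groups, and what libraries of the same number share was not tested. With the replicate number as a block the counts were 8 in 14-0-0, 11 in 14-7-0, 8 in 14-7-2, 5 in 14-14-0, 13 in 0-0-2, 1 in home cage and 16 in 14-7-2 against 14-7-0, where limma's smallest adjusted p of a member was 0.0484, for Idi1. No read counts were used, so the counting error behind low genes is unknown.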
